A study of Homo sapiens with 12 samples.

Results

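The genes described are the 49 protein-coding genes of GENCODE release 44 whose symbol starts with PAX, LHX, DLX, NKX, IRX, MSX, EMX or OTX followed by a digit, out of 20046 protein-coding genes. They comprise 14 NKX, 9 PAX, 8 LHX, 6 DLX, 6 IRX, 2 MSX, 2 EMX and 2 OTX genes, all outside the HOX clusters. Every listed H2A.Z or acetylated H2A.Z (H2A.Zac) region that overlapped such a gene with 5 kb added to each side, termed its locus, was assigned to it. This gave 146 of 158028 regions, 65 of H2A.Z and 81 of H2A.Zac, and no region fell into more than 1 locus.

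The regions come from ChIP-seq in K562, a human line from a chronic myeloid leukemia, whose cell type is labeled lymphoblast. In all cells the endogenous EP400 gene carries a dTAG degradation tag, and the tagged protein was removed with 500 nM dTAGV-1 for 24 h in both groups. The groups differ in the EP400 expressed from the AAVS1 locus, which was WT EP400 in one line and EP400 lacking its TRRAP-binding SANT and HD domains (ΔTRRAP) in the other. Each line was 1 clone, and each gave 2 replicates of input, H2A.Z and H2A.Zac, 12 libraries in all, so the mutation and the clone cannot be told apart. No sample without dTAGV-1 was analysed here.

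H2A.Z is a histone variant placed around transcription start sites (TSSs) and at enhancers. The TIP60 complex, which EP400 scaffolds, can exchange H2A for H2A.Z and acetylate it, and its TRRAP subunit is a surface for contact with transcription factors. The genes considered here encode DNA-binding regulators of embryonic patterning, most of them with a homeodomain, and are typically silent outside the tissues they specify. PAX genes share the paired domain, and PAX1 and PAX9 have no homeodomain, so the homeobox name covers them only by family. LHX proteins combine a homeodomain with LIM domains, and IRX proteins belong to the TALE class.

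For each mark, the authors pooled the replicates of a line and ran MACS2 bdgdiff between the lines, which sorts stretches of the genome into classes at a log10 likelihood ratio of 3. Regions higher in WT are termed lost, regions higher in ΔTRRAP gained, and the others unchanged. The ratio is the only value of a region. It grows with depth and with the size of the difference and is not a fold change. The lists hold no value per replicate and no read count, so depth is unknown and neither a spread between replicates nor a test across the lines can be given. The ranges given after shares are Wilson 95% intervals, which cover counting error only and treat neighboring regions as independent, which they are not. Classes can also share bases, since 44.4% of the members' H2A.Zac regions and 49.3% of all H2A.Zac regions overlapped a region of another class of the same mark.

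H2A.Zac at these loci was listed as lost far more often than as gained. Of the 81 H2A.Zac regions, 47 (58.0%, 47.2 to 68.2%) were lost in ΔTRRAP, 5 (6.17%, 2.67 to 13.6%) were gained and 29 were unchanged. Over the whole list of 94586 regions, 25.9% were lost and 26.3% were gained, 52.1% changed in all, against 64.2% (53.3 to 73.8%) at the members. Gained regions thus made up 9.62% (4.18 to 20.6%) of the changed H2A.Zac regions at the members, 50.4% of those in the whole genome and 55.8% of those at all protein-coding loci. Of the 65 H2A.Z regions, 15 (23.1%) were lost, 7 (10.8%) were gained and 43 were unchanged, where the whole list held 19.8% lost and 14.1% gained, 34.0% changed in all. The gained share of the changed H2A.Z regions was 31.8% (16.4 to 52.7%) at the members and 41.6% over the whole list, a difference inside the interval. The intervals of the gained share of H2A.Zac and H2A.Z at the members overlap, and the difference between the marks was not tested.

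**Figure D1:**
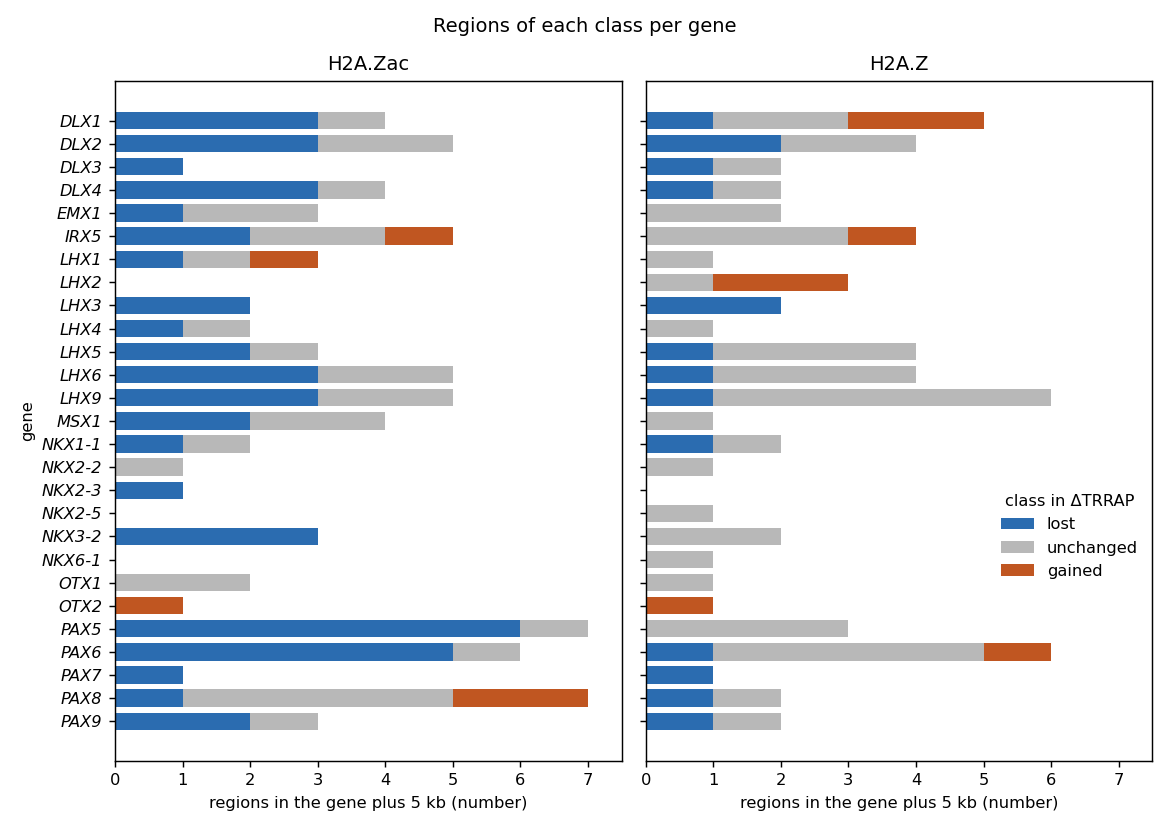
Number of lost, unchanged and gained regions of H2A.Zac (left) and H2A.Z (right) in the locus of genes that held any listed region, of which 27 of 28 are drawn. Lost regions fill most of the H2A.Zac bars, with 5 gained regions in 4 genes, while unchanged regions fill most of the H2A.Z bars.

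Counted by gene, 28 members (57.1%; 82.9% of all protein-coding genes) held a listed region, 23 (46.9%; 74.5%) held a changed one and 24 (49.0%; 76.3%) held both marks. A lost H2A.Zac region was present at 21 members (42.9%), near the 43.2% of all protein-coding genes, and a gained one at 4 members (8.16%), where all protein-coding genes reached 54.9%. Among the 25 members with any H2A.Zac region, 84.0% held a lost region and 16.0% a gained one, beside 53.5% and 68.0% of the protein-coding genes with any. For H2A.Z, 13 members (26.5%; 21.7% of all protein-coding genes) held a lost region and 5 (10.2%; 23.7%) a gained one. All 13 members with lost H2A.Z also held lost H2A.Zac (77.2 to 100%), as did 91.1% of all protein-coding genes with lost H2A.Z. The 47 lost H2A.Zac regions were spread over these 21 members, 8 of which held a single one, while 8 others with at least 3 each held 29. PAX5 and PAX6 together accounted for 11.

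The highest likelihood ratios were found at LIM-homeodomain and PAX genes. LHX3, required for pituitary and motor neuron development, held a lost H2A.Zac region with a log10 likelihood ratio of 108, which ranked 9 among the 24482 lost H2A.Zac regions. It spans 518 bp over exons 4 to 5 of LHX3 (chr9:136198513-136199030, hg38), 6.10 kb downstream of the canonical TSS, and overlaps no H2A.Z region. A second lost H2A.Zac region of 5139 bp, with a ratio of 37.8, lies downstream of LHX3 (chr9:136189243-136194381) over lost H2A.Z regions with ratios of 11.9 and 9.97. PAX7, a factor of muscle stem cells and neural crest, held a single region of each mark in intron 4, 49.97 kb from the canonical TSS (H2A.Zac, chr1:18680815-18681590). Its H2A.Zac region was lost with a ratio of 63.0, ranking 83, and its H2A.Z region was lost with a ratio of 23.1, ranking 34 among 12592. On the gained side, OTX2, a regulator of forebrain and retina, held 1 H2A.Zac region with a ratio of 26.6 in intron 2 (chr14:56806054-56807337) over a gained H2A.Z region with a ratio of 8.83.

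The central 300 bases of the lost H2A.Zac region at LHX3 and the gained one at OTX2 are given because they carry the highest ratio of each direction at the members and differ in base composition. They are from hg38, on the strand of the gene, with CpG dinucleotides in capitals, and the choice was made after the values were seen.
LHX3, chr9:136198622-136198921, minus strand: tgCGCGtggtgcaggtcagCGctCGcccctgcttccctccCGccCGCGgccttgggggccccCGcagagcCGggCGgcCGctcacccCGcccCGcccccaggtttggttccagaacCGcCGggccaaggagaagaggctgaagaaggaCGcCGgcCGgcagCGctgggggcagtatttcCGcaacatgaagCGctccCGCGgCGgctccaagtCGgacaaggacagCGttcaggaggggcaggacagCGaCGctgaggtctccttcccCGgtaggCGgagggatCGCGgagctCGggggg
OTX2, chr14:56806546-56806845, minus strand: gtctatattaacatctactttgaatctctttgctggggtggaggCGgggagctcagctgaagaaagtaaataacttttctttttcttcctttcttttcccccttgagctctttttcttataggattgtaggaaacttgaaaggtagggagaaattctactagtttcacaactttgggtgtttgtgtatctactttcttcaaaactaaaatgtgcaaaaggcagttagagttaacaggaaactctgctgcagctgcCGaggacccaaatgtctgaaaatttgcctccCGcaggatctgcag
The LHX3 window holds 33 CpGs at a GC content of 72.3% and includes codons of the third helix of the homeodomain, the one that reads DNA. The OTX2 window holds 3 CpGs at 41.0% GC. The highest lost ratio was thus found in a CpG-rich window and the highest gained ratio in a CpG-poor one, with 1 region for each direction. The next highest lost H2A.Zac region, at PAX7, had 48.6% GC and a ratio of observed to expected CpGs of 0.241. For the whole gained region at OTX2 that CpG ratio was 0.345.

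**Figure D2:**
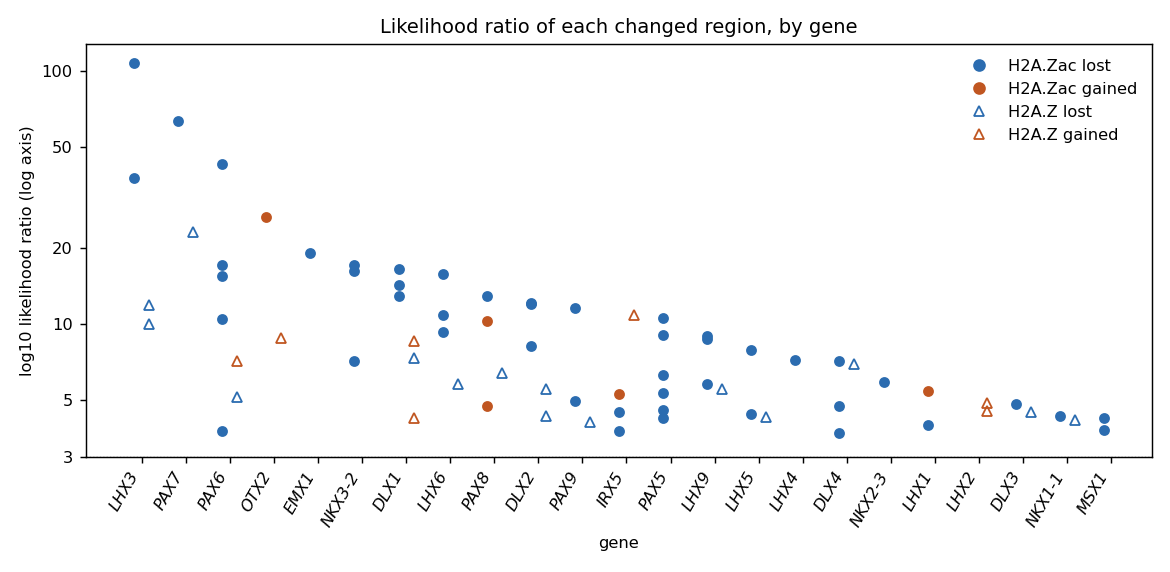
Log10 likelihood ratio of every changed region (log axis) at the 23 genes with a changed region, ordered by their highest value; filled circles are H2A.Zac and open triangles H2A.Z. LHX3, PAX7 and PAX6 lie at the top with lost H2A.Zac regions up to 108, and OTX2 holds the highest gained value of 26.6.

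Among the PAX genes, 5 of 9 held listed regions, beside 82.9% of all protein-coding genes. All 5 of them held lost H2A.Zac, beside 53.5% of the protein-coding genes with any H2A.Zac region. PAX6, which governs eye and pancreas development, held 5 lost H2A.Zac regions with ratios of 42.7, 17.1, 15.5, 10.4 and 3.77, and no gained one. The region with the ratio of 42.7 spans 1215 bp around an alternative TSS in intron 4 (chr11:31803261-31804475) and overlaps no H2A.Z region. At the canonical PAX6 TSS a 3501-bp H2A.Zac region was unchanged, although it overlapped a gained H2A.Z region with a ratio of 7.17. The lost H2A.Zac region with the ratio of 3.77 lay wholly inside this unchanged one. The lost region with 15.5 covered a TSS of PAX6 and one of another annotated protein-coding gene. That with 10.4 covered a TSS of the other gene only, 175 bp from the nearest PAX6 TSS. PAX5, the factor of B-cell commitment, held 6 lost H2A.Zac regions with ratios from 4.26 to 10.6, in introns 1, 5 and 8 and exon 6, while its 3 H2A.Z regions were unchanged. PAX9, needed for teeth and thymus, held lost H2A.Zac regions with ratios of 11.6 and 4.96 on both sides of its canonical TSS. PAX8, a thyroid and kidney factor, changed in both directions. Its H2A.Zac was lost 3789 bp upstream of the canonical TSS (ratio 12.9) and gained in exon 11 (4.74) and downstream of the gene (10.2), the last of these at a TSS of the antisense transcript PAX8-AS1. PAX1, PAX2, PAX3 and PAX4 held no listed region.

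Of the 8 LHX genes, 6 held lost H2A.Zac, beside 43.2% of all protein-coding genes. No other LHX gene held any H2A.Zac region, and 53.5% of the protein-coding genes with any held a lost one. LHX8 held no region of either mark. LHX6, a gene of cortical interneurons, had lost regions with ratios of 15.7, 10.9 and 9.31, the widest of them 2632 bp around an alternative TSS in intron 4. LHX9 (gonad development) had ratios of 8.98, 8.72 and 5.82, LHX5 (forebrain) 7.90 and 4.42, and LHX4 (pituitary) 7.20. LHX2, a factor of forebrain, eye and limb, held H2A.Z only, with gained regions of 4.90 over its canonical TSS and 4.53 in intron 4. LHX1 changed in both directions, with a lost ratio of 3.98 and a gained ratio of 5.43. These regions lie downstream of LHX1, and the TSS nearest to them is that of AATF, a different protein-coding gene.

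The DLX genes lie in pairs, and the pairs were not alike. DLX1 and DLX2, 9.76 kb apart on chromosome 2 and both needed for forebrain interneurons, each held 3 lost H2A.Zac regions, with ratios of 16.5, 14.3 and 12.9 at DLX1 and 12.1, 12.0 and 8.20 at DLX2. DLX4 and DLX3, 15.0 kb apart on chromosome 17, held 3 and 1 lost regions with lower ratios, from 3.71 to 7.16. DLX5 and DLX6, 9.36 kb apart on chromosome 7 and known from jaw and limb development, held none. All 10 changed H2A.Zac regions at DLX genes were lost (0% gained, 0 to 27.8%; 55.8% gained at all protein-coding loci). DLX1 and DLX2, which supplied 6 of them, lie where changed H2A.Zac was mostly lost, with 29.2% and 28.1% gained in the 2.5 Mb to each side. For H2A.Z, 5 regions at DLX genes were lost and 2 gained (28.6% gained, 8.22 to 64.1%; 48.6% at all protein-coding loci). All 4 DLX genes with H2A.Z held a lost region, beside 27.8% of protein-coding genes with any. Both gained regions lay at DLX1, with ratios of 8.60 and 4.24 within 1 kb of its TSSs, beneath an unchanged H2A.Zac region. DLX1 also held a lost H2A.Z region within 1 kb of a TSS, with a ratio of 7.36.

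Changed regions were found at 3 of 14 NKX and 1 of 6 IRX genes, beside 74.5% of all protein-coding genes. Of the NKX genes, 7 held no region and 3 held lost H2A.Zac, beside 17.1% and 43.2% of all protein-coding genes. NKX3-2, a cartilage and spleen factor, held 3 lost H2A.Zac regions with ratios of 17.1, 16.1 and 7.15 and no unchanged one, whereas its 2 H2A.Z regions were both unchanged. NKX2-3 and NKX1-1 held 1 lost H2A.Zac region each, with ratios of 5.93 and 4.35. NKX2-2 held only unchanged regions, 1 of each mark, and NKX2-5, the cardiac factor, and NKX6-1, a pancreatic beta cell factor, only 1 unchanged H2A.Z region each. Of the 6 IRX genes, IRX5 alone held regions. An unchanged H2A.Zac region of 2436 bp covered its TSS. A lost region with a ratio of 3.79 lay wholly inside it, and another, with 4.50, adjoined it in intron 1. H2A.Zac was gained 3078 bp upstream (5.29), with 60.9% of that region on gained H2A.Z with a ratio of 10.9, at a TSS of the long noncoding RNA CRNDE. The small MSX, EMX and OTX families gave lost H2A.Zac at MSX1, a tooth and palate gene (4.28 and 3.83), and at EMX1, a cortical gene (19.0, exon 3). OTX1 held unchanged regions only.

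No region of either mark was listed for 21 members (42.9%), where 17.1% of all protein-coding genes had none. These are DLX5, DLX6, EMX2, IRX1, IRX2, IRX3, IRX4, IRX6, LHX8, MSX2, NKX1-2, NKX2-1, NKX2-4, NKX2-6, NKX2-8, NKX6-2, NKX6-3, PAX1, PAX2, PAX3 and PAX4. Neighboring members could differ. NKX2-1, the thyroid and lung factor, and NKX2-8 held nothing, while PAX9, 75 kb beyond NKX2-8 on chromosome 14, held 3 H2A.Zac regions. On chromosome 20, NKX2-4 and PAX1 held nothing on either side of NKX2-2, 113 and 192 kb away. Sparse listing was not particular to the members. Any H2A.Z region was held by 55.1% of them and any H2A.Zac region by 51.0%. Among the 61 other homeobox genes compared below, the shares were 55.7% and 52.5%. The members' loci were also shorter than those of all protein-coding genes, at a median of 16.4 against 37.4 kb. The absence of a listed region does not show that the mark was absent, since the depth is unknown.

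Few members held gained H2A.Zac at a TSS. Within 1 kb of a TSS, 17 members (34.7%; 69.1% of all protein-coding genes) held any H2A.Zac region. Lost H2A.Zac was held there by 12 members (24.5%; 22.3%), gained H2A.Zac by 2 (4.08%; 41.4%) and unchanged H2A.Zac by 14 (28.6%; 62.5%). Of the 61 other homeobox genes, 29.5% held any H2A.Zac there, 16.4% lost and 11.5% gained. Lost and unchanged regions occurred together at 10 members (20.4%; 18.6%), namely DLX1, DLX2, DLX4, IRX5, LHX4, LHX6, MSX1, PAX5, PAX6 and PAX9. Of the members with lost H2A.Zac at a TSS, 83.3% thus held unchanged H2A.Zac there too, beside 83.5% of all such protein-coding genes. LHX9 and NKX3-2 held lost H2A.Zac there without unchanged H2A.Zac, and the reverse was seen at EMX1, OTX1 and PAX8 among others. With canonical TSSs only, 11 members held lost, 0 gained and 11 unchanged H2A.Zac. For H2A.Z, 6 members (12.2%; 9.3%) held a lost region within 1 kb of a TSS, 4 (8.16%; 16.2%) a gained one and 16 (32.7%; 64.3%) an unchanged one. Around the canonical TSS of DLX1, DLX2, DLX4 and PAX9, an unchanged H2A.Zac region of 438 to 1272 bp was flanked by a lost one on each side. At DLX2 the unchanged stretch was the 438-bp one, and the flanking losses of 954 bp upstream and 642 bp downstream had ratios of 12.0 and 12.1. The pattern was noted after the values were seen. Counting lost regions within 200 bp of the edges, overlapping ones included, 6 of the 29 unchanged H2A.Zac regions (20.7%) at the members, with LHX9 and PAX8 added, had a lost region at both edges and 0 had a gained region at both. Over all 45260 unchanged H2A.Zac regions these shares were 4.75% and 8.25%. A lost region at either edge was seen for 18 (62.1%) at the members and 25% overall.

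**Figure D3:**
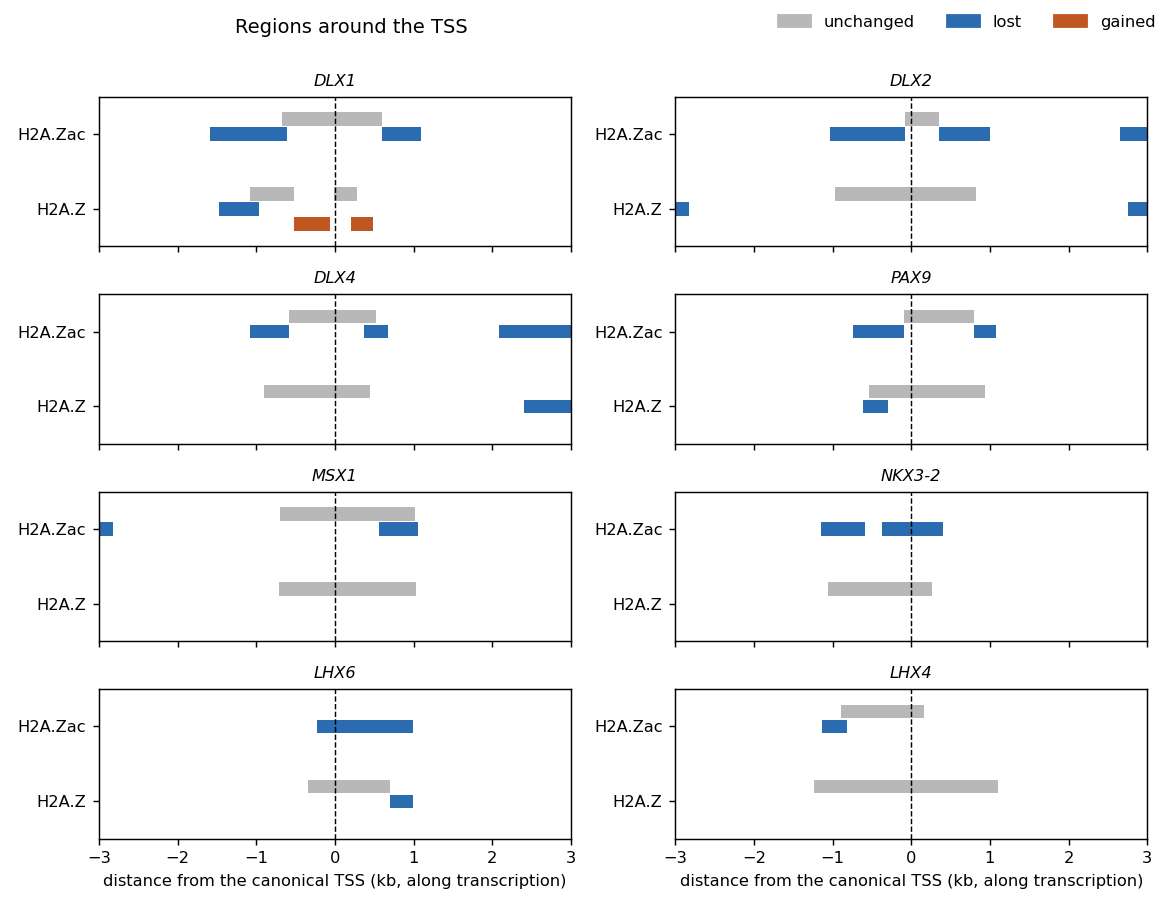
Positions of unchanged, lost and gained regions from 3 kb upstream to 3 kb downstream of the canonical TSS (dashed line), along the direction of transcription, at 8 genes. At DLX1, DLX2, DLX4 and PAX9 an unchanged H2A.Zac region at the TSS lies between lost ones, while at NKX3-2 and LHX6 the region over the TSS is itself lost.

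The positions can be read against the promoter sequences. Of the 49 members, 34 had promoters in RefSeq (GRCh38.p14), 56 in all, each reaching from 250 bases before to 50 after the start. Among them, the promoters of 6 members (17.6%, 8.35 to 33.5%) overlapped a lost H2A.Zac region and those of 0 (0 to 10.2%) a gained one. Over the 15345 protein-coding genes with such a promoter these shares were 8.27% and 29.5%. The 3 with the highest ratios are given with CpGs in capitals, followed by that of DLX2, in which capitals mark the 168 bases inside the lost region and lower case the 132 bases outside it. The last was chosen after the values were seen.
PAX6, chr11:31803624-31803923, minus strand, ratio 42.7: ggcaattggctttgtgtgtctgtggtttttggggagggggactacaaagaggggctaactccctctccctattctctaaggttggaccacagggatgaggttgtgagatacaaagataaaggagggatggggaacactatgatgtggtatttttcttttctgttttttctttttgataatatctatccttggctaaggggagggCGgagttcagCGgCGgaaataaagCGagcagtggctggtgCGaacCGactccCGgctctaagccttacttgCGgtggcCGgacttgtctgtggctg
NKX3-2, chr4:13544459-13544758, minus strand, ratio 16.1: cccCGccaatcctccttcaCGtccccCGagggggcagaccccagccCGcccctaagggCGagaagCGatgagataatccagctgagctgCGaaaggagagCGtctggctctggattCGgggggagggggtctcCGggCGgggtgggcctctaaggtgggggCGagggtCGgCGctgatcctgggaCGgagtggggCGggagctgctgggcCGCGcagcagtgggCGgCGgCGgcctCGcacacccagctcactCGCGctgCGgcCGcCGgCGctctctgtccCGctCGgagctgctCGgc
LHX6, chr9:122221691-122221990, minus strand, ratio 15.7: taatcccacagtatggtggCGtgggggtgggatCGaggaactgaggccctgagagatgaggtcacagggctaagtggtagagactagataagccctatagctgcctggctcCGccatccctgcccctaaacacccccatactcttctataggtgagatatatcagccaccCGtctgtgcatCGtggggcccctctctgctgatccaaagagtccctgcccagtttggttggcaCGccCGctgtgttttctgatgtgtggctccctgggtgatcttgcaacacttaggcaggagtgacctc
DLX2, chr2:172102851-172103150, minus strand, ratio 12.0: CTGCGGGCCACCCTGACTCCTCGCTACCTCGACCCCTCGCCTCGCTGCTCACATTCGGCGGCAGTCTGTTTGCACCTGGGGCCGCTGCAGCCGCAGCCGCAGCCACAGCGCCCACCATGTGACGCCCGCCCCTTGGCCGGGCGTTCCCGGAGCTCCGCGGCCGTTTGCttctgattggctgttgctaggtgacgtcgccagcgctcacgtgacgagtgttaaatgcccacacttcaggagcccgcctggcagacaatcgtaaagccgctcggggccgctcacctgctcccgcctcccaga
The PAX6 and LHX6 sequences belong to internal start sites and hold 9 and 7 CpGs, whereas those of NKX3-2 and DLX2 hold 31 and 30. NKX3-2 holds 4 GC boxes (GGGCGG on either strand), DLX2 and PAX6 1 each and LHX6 0. DLX2 alone among these holds CACGTG, the core bound by MYC and related factors, which reads the same on both strands. Over the 56 promoters, CACGTG occurred in 5.36%, TAATTA (a homeodomain core, also palindromic) in 5.36%, GGGCGG in 51.8% and TATAAA, searched on the sense strand only, in 3.57%. TAATTA was found in 0 of the 36 promoters of members with a listed region and in 3 of the 20 (15.0%) of members without one. Over the 21613 RefSeq promoters of protein-coding genes the shares were 8.35%, 3.35%, 56.8% and 6.5%, and over all 35116 promoters of this length, noncoding genes included, they were 7.26%, 4.84%, 45.0% and 7.33%. None of these motifs contains another. The median GC content was 63.8% at the members, 62.3% over protein-coding promoters and 58.7% over all promoters.

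The regions at the members were rich in CpG, as were those at like genes. The median ratio of observed to expected CpGs was 0.627 for the members' H2A.Zac and 0.687 for their H2A.Z regions, against 0.331 and 0.382 over all regions. It was 0.671 and 0.735 at the 61 other homeobox genes and 0.532 and 0.609 at the HOX cluster genes. The median GC content at the members was 58.5% and 60.2% against 49.8% and 51.1% over all regions. CpG-rich regions of the genome tended the other way. Among H2A.Zac regions with a CpG ratio of at least 0.6, 70.8% of the changed ones were gained over the whole list, whereas at the members 24 were lost and 0 gained (0 to 13.8% gained). The split was chosen after the values were seen. Below this CpG ratio the members had 23 lost and 5 gained regions (17.9% gained, 7.88 to 35.6%), beside 45.3% gained over the whole list. Those 5 gained regions had CpG ratios from 0.0885 to 0.504. Within 1 kb of any annotated TSS, 29 H2A.Zac regions at the members were lost and 5 gained (14.7% gained, 6.45 to 30.1%), beside 62.3% gained over the whole list, and farther away 18 were lost and 0 gained, beside 42.9% gained. For H2A.Z, 6 regions were lost and 6 gained within 1 kb, beside 57.1% gained over the whole list, and farther away 9 were lost and 1 gained (1.79 to 40.4% gained), beside 33.7% gained.

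Lost H2A.Zac at the members lay more often on unchanged than on lost H2A.Z. Taking an overlap as at least 25% of the length, 29 of the 47 lost H2A.Zac regions (61.7%, 47.4 to 74.2%) lay on unchanged H2A.Z and 10 (21.3%, 12.0 to 34.9%) on lost H2A.Z. Of these, 7 (14.9%; 10.3% over the whole list) lay on both, so that 22 (46.8%, 33.3 to 60.8%; 26.1%) lay on unchanged H2A.Z alone, and 15 lay on neither class (31.9%, 20.4 to 46.2%; 45.2%). Over all lost H2A.Zac regions the shares were 36.4% on unchanged and 28.6% on lost H2A.Z. Seen from H2A.Z, 22 of the 43 unchanged regions (51.2%, 36.8 to 65.4%) carried lost H2A.Zac and 0 carried gained H2A.Zac, beside 19.5% and 25.1% over the whole list. NKX3-2 is an example, with lost H2A.Zac over 83.3% of the unchanged H2A.Z region at its TSS. Where H2A.Z was lost, H2A.Zac usually was as well, at 13 of 15 regions (86.7%, 62.1 to 96.3%; 65.9% over the whole list). Where H2A.Z was gained, H2A.Zac was gained at 2 of 7 regions (28.6%, 8.22 to 64.1%; 65.8% over the whole list). Of the 52 changed H2A.Zac regions, 34 (65.4%, 51.8 to 76.8%) lay on any listed H2A.Z region, beside 56.1% over the whole list.

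The lost H2A.Zac regions at the members were of ordinary size and ratio. Their median width was 638 bp and their median ratio 8.72, and 42.6% had a ratio of at least 10, against 702 bp, 8.27 and 38.8% over all lost H2A.Zac regions. Counted per gene, the members held fewer regions than protein-coding genes in general, with 1.65 against 3.05 H2A.Zac regions and 1.33 against 1.9 H2A.Z regions, but their loci were shorter, at a median of 16.4 against 37.4 kb. Per 100 kb the members held 5.35 against 4.29 H2A.Zac and 4.29 against 2.68 H2A.Z regions.

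The same shares were computed for groups of like genes. Gained regions made up 65.3% (51.3 to 77.1%) of the 49 changed H2A.Zac regions at the 39 HOX cluster genes, 56.1% (47.5 to 64.2%) of the 132 at the 71 FOX and SOX genes, and 56.5% (44.1 to 68.1%) of the 62 at 61 other homeobox genes. The TALE genes of the MEIS, PBX, PKNOX and TGIF families encode partners that bind DNA together with many homeodomain proteins. At these 11 genes, 31 of 48 changed H2A.Zac regions were gained (64.6%, 50.4 to 76.6%). Of the genes, 7 (63.6%; 43.2% of all protein-coding genes) held a lost and 8 (72.7%; 54.9%) a gained region. Among protein-coding genes with any H2A.Zac region, 53.5% held a lost and 68.0% a gained one. MEIS2 held 6 gained H2A.Zac regions, with a ratio of up to 14.7, and 1 lost, while PKNOX2 held 5 lost, with a ratio of up to 37.3, and 1 gained. These were chosen after their values were seen. None of these 4 intervals meets that of the members, 4.18 to 20.6%. The groups were compared by counts of regions only, as the lists allow no test between them.

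**Figure D4:**
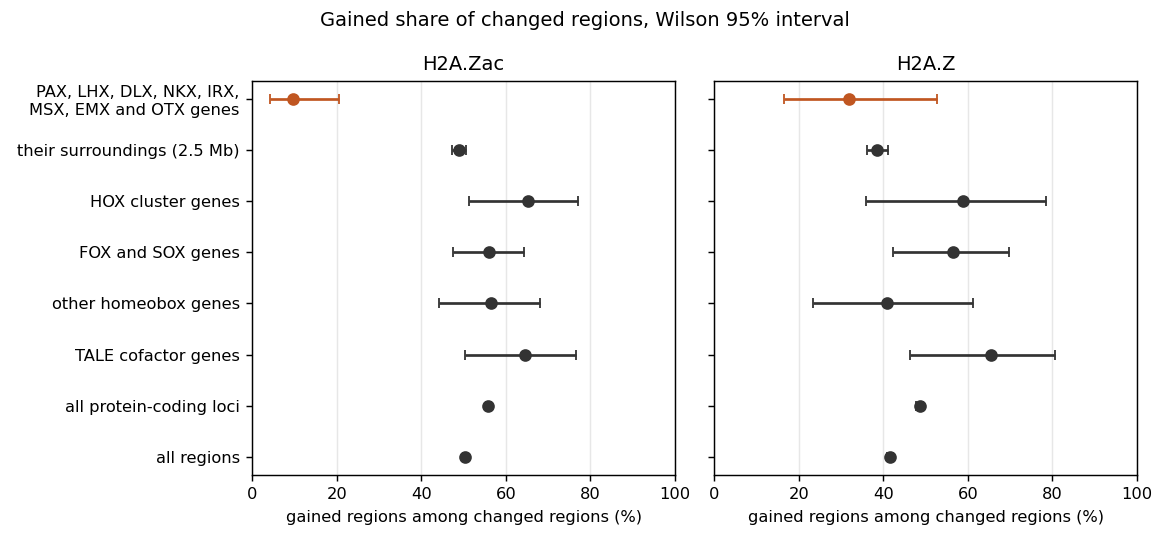
Share of gained regions among changed regions of H2A.Zac (left) and H2A.Z (right) for the members, their surroundings within 2.5 Mb and the compared groups, with Wilson 95% intervals. The H2A.Zac share of the members, 9.62%, lies below the others, which run from 48.8 to 65.3%, while for H2A.Z the intervals of the members and of all regions meet.

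Changes of 1 direction can lie next to each other along a chromosome, so each locus was set beside the 2.5 Mb to each side without the loci of the members. In these surroundings 1710 of 3502 changed H2A.Zac regions were gained (48.8%, 47.2 to 50.5%), and the share around single members ran from 4.0 to 80.2% with a median of 53.4%. Of the 22 members with changed H2A.Zac, 18 held 0 gained regions among 1 to 6 changed ones, so their share could not exceed that around them. Of the other 4, IRX5 had a lower gained share in the locus than around it, and LHX1, OTX2 and PAX8 a higher one. NKX3-2 held 3 lost regions in the locus with 63.6% gained around it. Among these 22 members, the lowest gained shares in the surroundings were those of LHX5, with 17.6%, DLX2, with 28.1%, and DLX1, with 29.2%. OTX2 lay in surroundings with 70.8% gained H2A.Zac and 90.9% gained H2A.Z, the latter of 11 changed regions.

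**Figure D5:**
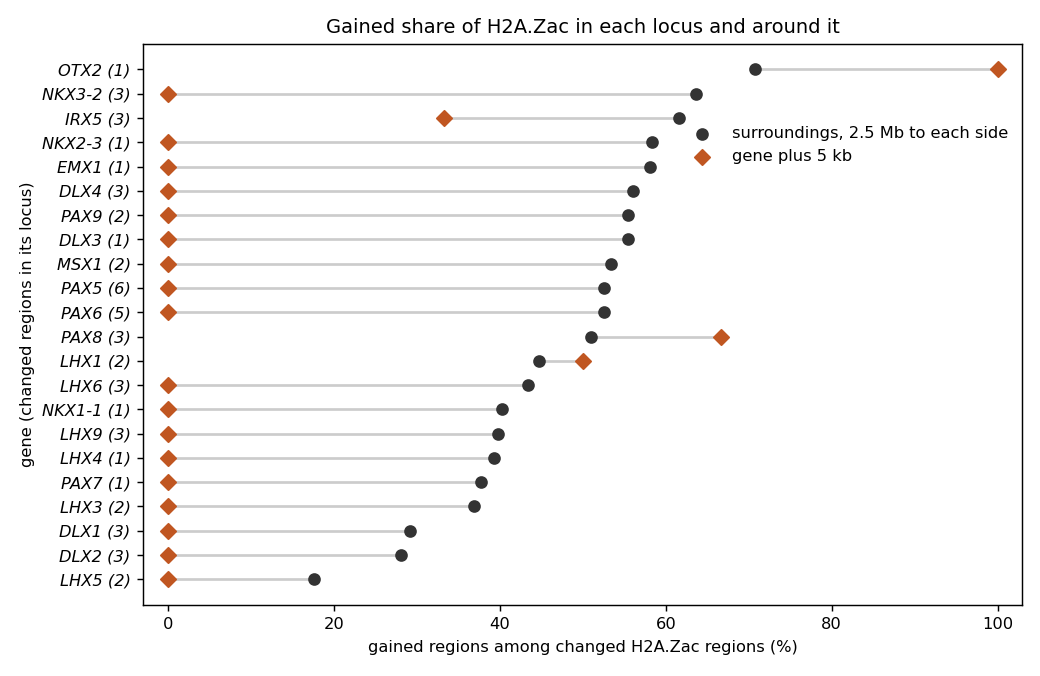
Share of gained regions among changed H2A.Zac regions in the locus (diamonds) and in the 2.5 Mb to each side (circles) for the 22 genes with changed H2A.Zac, the number in parentheses being the changed regions of the locus. For 18 genes the locus lies at 0%, and for LHX1, OTX2 and PAX8 it lies above its surroundings.

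Markers of the labeled cell type were checked in the same lists. The erythroid genes GATA1, TAL1, KLF1, HBG1 and HBG2 all held H2A.Zac regions, and TAL1, KLF1 and HBG2 also held H2A.Z regions. The B-lymphoid genes CD79A, CD79B and EBF1 held regions of both marks and MS4A1 held none. The presence of listed regions at these genes therefore does not separate the lineages here.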

How the data were processed

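ChIP-seq of H2A.Z and H2A.Zac in K562 cells was used as 6 deposited lists, 3 per mark. The authors aligned reads to hg38 with Bowtie2 2.4.5, called peaks with MACS2 2.2.7.1, merged replicates, compared WT with ΔTRRAP by bdgdiff after scaling to equal effective depth, and kept regions with at least 25% of their length in peaks at an IDR of 0.05. The score the authors deposited for each region is a log10 likelihood ratio, and no depth can be derived from it.

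The lists were read as they are. TSSs, exons and gene bounds came from GENCODE release 44 and promoters from RefSeq. Overlaps were counted with Python 3.11.15, numpy 2.4.6 and pandas 2.3.3, intervals with scipy 1.17.1, and figures with matplotlib 3.10.9. On 5000 simulated regions the covered lengths differed from bedtools 2.31.1 in 0 cases.

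The members, lists and splits were chosen with earlier results of these data known. Genes were named by rank, namely the 8 members with the highest ratio of changed H2A.Zac and the 5 with the highest of changed H2A.Z in each direction, those changed in both directions, those with no region, and members within 200 kb of these. Other members were named to account for the rest, and some genes and 1 sequence are not reported here. No test across the lines was possible from the merged lists, which hold no value per replicate. Alternatives are given in the closing section. Input libraries, signal tracks and expression were not analysed here.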

Additional observations from a re-analysis of the deposited data

How the results depend on the processing

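Of 117 alternative values for 20 results, 106 stayed close to the reported one (shares inside its interval, counts and medians within 1.5 times). The changed share of H2A.Z, 33.8% at the members and 34.0% over the whole list, lay on the other side of the whole list's share in 9 of 16 alternatives, and the other 4 shares in 0. The gained share of changed H2A.Zac at the members ranged from 4.88 to 11.1% over other locus sizes, cutoffs, widths, merging and base pairs, and from 7.84 to 11.9% with each of the 8 gene families left out. That of H2A.Z ranged from 25 to 40.0%. Higher cutoffs lowered the counts by construction. With a ratio of at least 5, the changed share was 45.7% for H2A.Zac and 21.5% for H2A.Z, where the whole list held 41.7% and 22.3%. A ratio of at least 10 gave 27.2% and 4.62%, each above the whole list's share at that cutoff. With at least 10, lost and gained H2A.Zac remained at 11 and 2 members and lost and gained H2A.Z at 2 and 1. With 2 kb to each side, 2 members held gained H2A.Zac, the only count of members that this setting moved by more than 1.5 times. Gained H2A.Zac within 1 kb of a TSS was found at 1 member with a ratio of at least 5 and at 0 with canonical TSSs only. Distances of 50 and 500 bp, added after seeing the data, left the 18 unchanged regions with a lost edge at 18. No paired analysis was possible because the lists hold 1 merged comparison per mark and no value per replicate, which also kept replicates from being left out. Depth is unknown, so a single region has no stated precision.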

Other observations

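Between 5 and 10 kb from the members, and so outside the loci as counted, the lists held 34 further regions. Of H2A.Zac, 9 were lost, 2 gained and 8 unchanged, where the whole list held 25.9% lost and 26.3% gained. Of H2A.Z, 5 were lost, 0 gained and 10 unchanged, where the whole list held 19.8% lost and 14.1% gained. OTX1, with unchanged regions only in its locus, had a lost H2A.Zac region with a ratio of 15.9 at a distance of 7.77 kb. EMX2, with no region in its locus, had one with a ratio of 8.82 at 6.69 kb, and NKX2-2 one with 9.38 at 5.12 kb. PAX9 (16.1 at 9.17 kb), NKX3-2 (14.1 at 8.9 kb) and NKX1-1 (11.2 at 7.46 kb) had further losses outside a locus that already held lost H2A.Zac. The 2 gained H2A.Zac regions lay near LHX4 (6.15 at 9.47 kb) and LHX9 (4.6 at 9.48 kb).

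IRX1, IRX2 and IRX4, which share the end of chromosome 5p, held no region, but the changed regions within 2.5 Mb to each side of them were mostly lost. Gained H2A.Z made up 0 of 38, 0 of 31 and 0 of 30 changed regions around IRX1, IRX2 and IRX4, and the gained share of changed H2A.Zac was 4.0, 12.2 and 12.0%. Unchanged regions lay there as well, with 29, 34 and 32 of H2A.Z and 36, 46 and 48 of H2A.Zac. These windows overlap each other, so they are not separate observations. The other IRX genes lie on chromosome 16, and around IRX3, which held no region either, 63.8% of the changed H2A.Zac regions were gained.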
